A study of Homo sapiens with 8 samples.

Results

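The polysome shift measures how far the change of a transcript in polysomal RNA, with siRNA against DDX3X, differed from its change in total RNA. It is the DDX3X-against-control change in polysomal RNA minus the same change in total RNA, on log2(FPKM + 1) group means. FPKM is the fragment number of an isoform divided by its length and by the mapped fragments of the library. The shift was described for 6427 isoforms, those above 0 in all 8 libraries with a mean of 5 FPKM or more, out of 65535 rows in the table and 15531 isoforms tested. A negative shift means a lower ratio of polysomal to total RNA after DDX3X siRNA, and a positive shift a higher ratio. The cells were HT-144, an established line from a human melanoma. The 4 groups were polysomal RNA and total RNA with control siRNA, and polysomal RNA and total RNA with DDX3X siRNA, with 2 libraries in each. The labels do not state whether the libraries of a group came from separate cultures, so p-values rest on a spread between libraries that may be technical.

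As background, a message that is being translated carries several ribosomes and sediments in the heavy, polysomal part of a sucrose gradient, while untranslated messages stay in lighter fractions. The helicase DDX3X, of the DEAD-box family, helps the small ribosomal subunit pass structured leader sequences when translation starts. A message that depends on such a helicase can therefore lose polysome association while its total RNA is kept. The comparison here separates that case from a message that is lost from polysomes because less of it is made or more of it is degraded. A negative shift can also come from a rise in total RNA with no fall on polysomes, so both changes are given for the isoforms described singly.

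The isoform identifiers are not paired with gene names in the files used here, so no gene is named, no gene list was tested, and neither the knockdown of DDX3X nor melanocyte markers were checked. FPKM gives no read counts, so depth was unknown. The values are also relative to each library, so an equal loss of all messages from polysomes would not appear. Over the 6427 isoforms the median level per library was 12.5 to 15.5 FPKM. The summed FPKM of all isoforms was less alike. It was 896504 and 654252 in the control polysomal libraries and 5486857 and 2386816 in the DDX3X polysomal libraries. In total RNA it was 2990408 to 3395217. A single isoform, uc032zlz.1, held 4.88% to 65.6% of these sums. The 6427 isoforms, this one among them, held 779517 and 413153 FPKM in the control polysomal libraries. In the DDX3X polysomal libraries they held 4397941 and 1270097 FPKM. The isoforms outside the 6427 thus also had a larger sum in the DDX3X polysomal libraries than in the control ones. The bearing of this difference on the polysomal changes was not tested. The median difference between libraries of a group, in absolute log2 value, was 0.11 in total RNA with either siRNA, 0.14 in control polysomal RNA and 0.25 in DDX3X polysomal RNA. DDX3X polysomal replicate 1 was lower than replicate 2 by a median of 0.20 on the log2 scale, and this pair stood apart from the other 3 pairs. The counts of shifts and calls, the tallies by fraction and the abundance classes are therefore also given without each of these libraries.

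Most isoforms moved little. The median shift was -0.04, the middle 50% lay between -0.22 and 0.11, and the SD over isoforms was 0.39. The lower side of the distribution was longer than the upper side. A shift of -0.5 or lower was found for 580 isoforms and a shift of 0.5 or higher for 198. At -1 or lower and 1 or higher the counts were 118 and 43. Median-of-ratios scaling between libraries moved the median to 0.05, so the sign of the centre depended on scaling, but the lower side stayed the longer one (444 against 295 at 0.5, and 100 against 49 at 1). Without DDX3X polysomal replicate 1 the counts at 0.5 were 402 lower and 271 higher, and without replicate 2 they were 1038 and 263. Because the cultures were measured in bulk, fewer cells with an isoform on polysomes and less of it on polysomes per cell cannot be told apart.

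**Figure D1:**
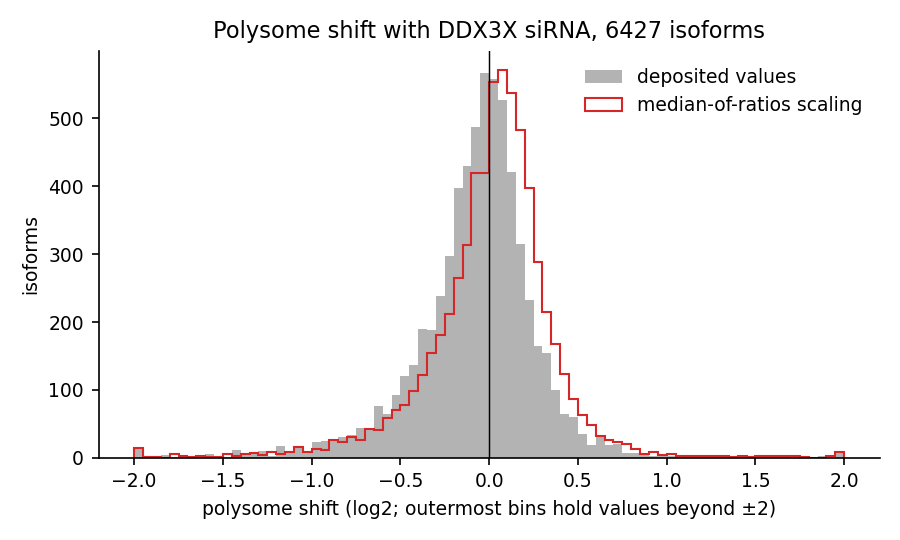
Number of isoforms (vertical axis) by polysome shift in log2 units (horizontal axis, bins of 0.05) for 6427 isoforms, on the deposited values (grey) and after median-of-ratios scaling (red line), with values beyond the axis in the outermost bins. The median is -0.04 on the deposited values and 0.05 after scaling, and the left side is the longer one in both.

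Under limma with Benjamini-Hochberg adjustment over all tested isoforms, 0 of the 6427 isoforms had a higher ratio and 3 a lower ratio at an adjusted p under 0.05. The corresponding background over the 15531 tested isoforms was 0.0322% higher and 0.0837% lower. At an unadjusted p under 0.05, 131 isoforms were higher (2.04%) and 425 lower (6.61%), against 2.15% and 5.23% of all tested isoforms. The higher share lay near the background and the lower share somewhat above it. The 6427 isoforms are themselves counted in this background, and the difference was not tested. Higher ratios made up 23.6% of these isoforms on the deposited values, 43.3% after median-of-ratios scaling (339 higher, 444 lower) and 42.7% after quantile normalization (332 higher, 446 lower). Of the 425 lower isoforms, 349 (82.1%) were also lower at that threshold after median-of-ratios scaling, where they were 78.6% of the lower list. Of the 131 higher isoforms, 108 (82.4%) were also higher after that scaling, where they were 31.9% of a longer list. The lower list was therefore largely shared between scalings, while the higher list grew with scaling. Leaving out DDX3X polysomal replicate 2 gave 194 higher and 1082 lower isoforms, and leaving out replicate 1 gave 232 and 342. The higher count was 73 without control total replicate 2 and 87 without DDX3X total replicate 1, and the lower count was 238 without DDX3X total replicate 2. In each of these the lower isoforms were the more numerous.

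The precision of a single shift was limited. Its standard error had a median of 0.21 (middle 50% from 0.17 to 0.26), which corresponds to a 95% interval of ±0.50, or 1.42-fold in either direction, at 6.65 degrees of freedom. The smallest shift that passed the adjusted threshold was 1.24 in absolute value. The absence of a call thus does not show that an isoform was unmoved. The fit pooled the spread over the 4 groups, so the polysomal and total RNA changes of an isoform have the same standard error. The median difference between libraries was 0.25 in DDX3X polysomal RNA and 0.11 in total RNA, which these standard errors do not show.

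Isoform uc003czv.3 fell in polysomal RNA while its total RNA did not pass. It measured 56.5 and 55.4 FPKM in the control polysomal libraries and 26.2 and 24.5 FPKM in the DDX3X polysomal libraries. In total RNA it measured 27.8 and 29.2 FPKM with control and 31.8 and 30.7 FPKM with DDX3X siRNA. The polysomal groups did not overlap and lay far apart, whereas the total RNA groups were separated by a small gap. Its polysomal change was -1.11 ± 0.09 (SE; limma adjusted p = 0.0158) and its total RNA change 0.13 ± 0.09 (adjusted p = 0.489). The resulting shift was -1.24 ± 0.12 (limma adjusted p = 0.0288), a 2.36-fold lower ratio on the log2(FPKM + 1) scale. Polysomal RNA was 1.96 times total RNA with control and 0.81 times with DDX3X siRNA, so the ratio passed below 1. The excess on polysomes with control siRNA passed (log2 ratio 0.95, limma adjusted p = 0.00184), whereas the deficit with DDX3X siRNA did not (-0.29, adjusted p = 0.0603). These levels depend on the scaling between libraries, so a ratio of 1 is no fixed reference. The median log2 ratio of all 6427 isoforms was 0.24 with control and 0.19 with DDX3X siRNA. After median-of-ratios scaling these medians were 0.07 and 0.11.

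Isoform uc002rid.3 moved in both parts of the contrast, and only its total RNA change passed. It rose in total RNA, from 14.4 and 14.5 FPKM with control to 26.2 and 27.8 FPKM with DDX3X siRNA (0.86 ± 0.11, limma adjusted p = 0.0431). On polysomes it measured 9.10 and 8.95 FPKM with control and 5.31 and 6.24 FPKM with DDX3X siRNA. The groups overlapped in neither fraction, and the polysomal change of -0.57 ± 0.11 did not pass (limma adjusted p = 0.0891). The shift was -1.43 ± 0.16 (limma adjusted p = 0.0489), just inside the threshold. On the deposited values the isoform was lower on polysomes than in total RNA with both siRNAs, at 0.626 times with control and 0.214 times with DDX3X siRNA.

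The third called isoform lay outside the rule for named isoforms, which required at least 1 FPKM in every library, and was described after its values had been seen. It measured 0.0719 and 0.514 FPKM in control total RNA and 15.4 and 25.6 FPKM in DDX3X total RNA. Its polysomal values were 38.3 and 63.8 FPKM with control and 42.0 and 29.9 FPKM with DDX3X siRNA, and these groups overlapped. Its shift of -4.50 ± 0.49 (limma adjusted p = 0.0468) came almost wholly from the rise in total RNA (4.03 ± 0.35, adjusted p = 0.0137), with a polysomal change of -0.47 that did not pass (adjusted p = 0.580). In control cells this isoform was listed 174 times higher on polysomes than in total RNA. Cufflinks divides reads between the isoforms of a gene, and the part of this division in such values was not tested.

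The 3 calls were not stable as a list. Limma called 7 isoforms, 2 of the 3 among them, without DDX3X polysomal replicate 2, and 2 isoforms, 1 of the 3 among them, without replicate 1. It called 1 isoform, with a higher ratio, without control polysomal replicate 1 and also without DDX3X total replicate 1, and 0 without control polysomal replicate 2, either control total library or DDX3X total replicate 2. In the 4 fits with 0 calls, 73 to 119 isoforms were higher and 238 to 356 lower at an unadjusted p under 0.05. Isoform uc003czv.3 kept its sign in all 17 other fits and passed in 7 of them (adjusted p from 0.00618 to 0.186), and uc002rid.3 likewise kept its sign in 17 and passed in 7 (adjusted p from 0.0102 to 0.253). The third called isoform kept its sign in 17 and passed in 2 (adjusted p from 0.0309 to 0.178), and its shift ran from -6.42 to -2.67 over these fits. After median-of-ratios scaling uc003czv.3 had an adjusted p of 0.127 and uc002rid.3 was the 1 of the 3 that passed.

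**Figure D2:**
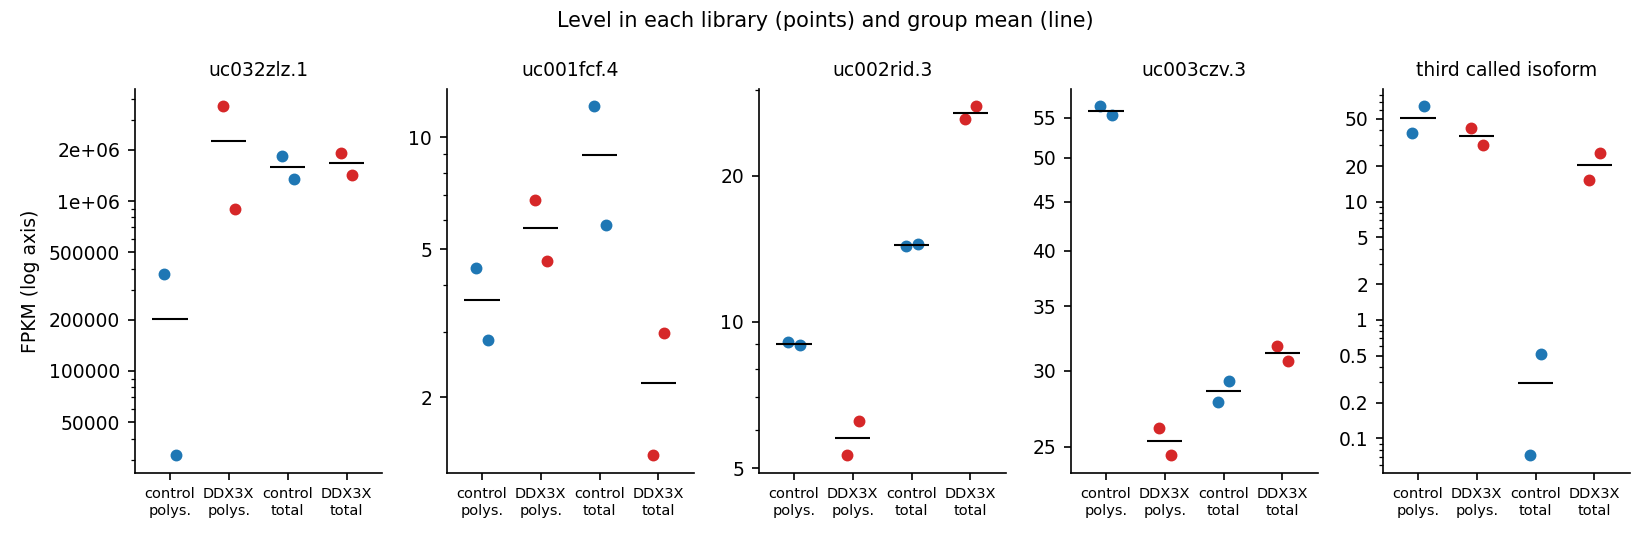
FPKM (vertical log axes, a separate range in each panel) of the 4 named isoforms and the third called isoform in each library (points; blue, control siRNA; red, DDX3X siRNA) with the group mean (line), n = 2 per group. For uc003czv.3 the DDX3X polysomal points (26.2 and 24.5) lie under all others, for uc002rid.3 the DDX3X total points (26.2 and 27.8) lie above all others, and the control polysomal points of uc032zlz.1 differ 11.7-fold.

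No isoform had a higher ratio at the adjusted threshold. Among isoforms at an unadjusted p under 0.05, with at least 1 FPKM in every library and with ratios that did not overlap, the 2 with the largest positive shift were uc032zlz.1 and uc001fcf.4, and neither passed. Isoform uc032zlz.1 was the most abundant of all and held 4.88% of the summed FPKM in control polysomal replicate 2 and 37.7% to 65.6% in the other 7 libraries. Its control polysomal values were 372122 and 31908 FPKM, which differ 11.7-fold, and its DDX3X polysomal values were 3600000 and 899906 FPKM, which differ 4.00-fold. In total RNA it was steadier, at 1850000 and 1340000 FPKM with control and 1920000 and 1430000 FPKM with DDX3X siRNA. Its total RNA values are deposited to 3 digits. The polysomal groups did not overlap, but the difference within each was large, and the shift of 3.97 ± 1.62 had a limma adjusted p of 0.659. Single libraries and the scaling decided its size: the shift corresponded to 15.7-fold with all libraries, 4.60-fold without control polysomal replicate 2 and 53.6-fold without control polysomal replicate 1. After quantile normalization it was 1.70, or 3.26-fold.

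Isoform uc001fcf.4 had a shift of 2.14 ± 0.56 (limma adjusted p = 0.436), most of it from total RNA. It measured 12.1 and 5.81 FPKM in control total RNA and 1.40 and 2.98 FPKM in DDX3X total RNA. Its polysomal values were 4.46 and 2.85 FPKM with control and 6.78 and 4.65 FPKM with DDX3X siRNA. The groups did not overlap in either fraction, but within total RNA the values differed 2.08-fold with control and 2.13-fold with DDX3X siRNA. Neither the total RNA change of -1.61 (limma adjusted p = 0.105) nor the polysomal change of 0.53 (adjusted p = 0.580) passed.

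The ratio in each group was also compared without a model, by asking whether the 4 polysomal-minus-total differences with DDX3X siRNA (each polysomal library against each total RNA library) lay entirely above or below the 4 with control siRNA. They did so for 497 isoforms above (7.73%) and 845 below (13.1%). Over all tested isoforms the shares were 7.67% and 12.3%. The shares were thus near those of the tested isoforms, among which the 6427 are counted. All 131 higher and 425 lower isoforms at an unadjusted p under 0.05 were among those with no overlap. With 2 libraries per group a p that low nearly requires such a gap, so this is not independent evidence for the lists.

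The lower and higher lists were then divided by the fraction that moved. In the 425 lower isoforms the median total RNA change was 0.43 and the median polysomal change -0.24. Of these, 309 (72.7%) had a total RNA change above 0 and a polysomal change below 0, against 18.7% of all 6427 isoforms. A further 81 had both changes above 0 with the smaller one on polysomes, and 35 had both below 0. Total RNA alone reached an unadjusted p under 0.05 in 203, polysomal RNA alone in 111, both in 69 and neither in 42. In the 131 higher isoforms the median polysomal change was 0.41 and the median total RNA change -0.20. Polysomal RNA alone reached an unadjusted p under 0.05 in 52, total RNA alone in 41, both in 20 and neither in 18. Over all 6427 isoforms the counts were 764 for polysomal RNA alone, 758 for total RNA alone, 815 for both and 4090 for neither. The polysomal change was the larger of both in 153 of the 425 lower (36.0%), 79 of the 131 higher (60.3%) and 51.3% of all 6427 isoforms. Without DDX3X polysomal replicate 1 it was the larger in 104 of 342 lower isoforms (30.4%), but without replicate 2 it was the larger in 707 of 1082 (65.3%). Whether total or polysomal RNA formed the larger part of most lower ratios therefore depended on 1 library. Without replicate 2 the median changes of the lower isoforms were -0.42 on polysomes and 0.21 in total RNA, and without replicate 1 they were -0.17 and 0.43. For the higher isoforms the polysomal change was the larger in 59.5% without replicate 1 and 70.1% without replicate 2, but in 52.5% after median-of-ratios scaling. A polysomal change below 0 with a total RNA change above 0 was found in 64.3% of the lower isoforms without replicate 1 and in 68.0% without replicate 2. These lists were selected on the difference of both changes, so opposite signs are favoured by that selection, and the shares are a description.

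**Figure D3:**
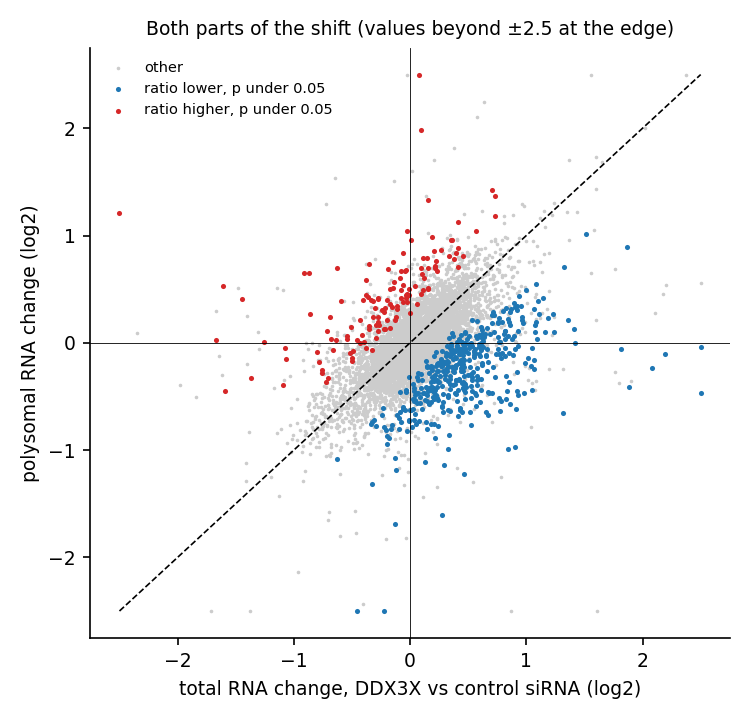
Change with DDX3X siRNA in polysomal RNA (vertical axis, log2) against the change in total RNA (horizontal axis, log2) for 6427 isoforms; the dashed line marks equal changes, so the vertical distance from it is the shift, and values beyond the axes are drawn at the edge. The 425 isoforms with a lower ratio at an unadjusted p under 0.05 (blue) lie mostly to the right of 0, with a median total RNA change of 0.43, and the 131 with a higher ratio (red) lie mostly above 0, with a median polysomal change of 0.41.

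The polysome-to-total ratio itself showed where these isoforms started. With control siRNA the median log2 ratio of the 425 lower isoforms was 0.21, close to the 0.24 of all 6427, and with DDX3X siRNA it was -0.51 against 0.19. In this list 287 isoforms had a ratio above 0 with control and 78 with DDX3X siRNA. The 131 higher isoforms had a median log2 ratio of 0.06 with control and 0.63 with DDX3X siRNA, with 67 and 124 above 0. The levels of these ratios depended on the scaling. After median-of-ratios scaling the medians of all isoforms were 0.07 with control and 0.11 with DDX3X siRNA, so their order turned. The 444 isoforms lower there had medians of -0.01 and -0.61, and the 339 higher there of -0.15 and 0.33. Without DDX3X polysomal replicate 1 or 2 the DDX3X median of all isoforms was 0.30 or 0.07, and that of the lower isoforms -0.42 or -0.41. Each shift contains the control ratio, so these medians are given side by side and no relation between them was tested.

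Isoforms called in a single fraction were then followed into the shift. In total RNA, limma called 59 of the 6427 isoforms higher (0.918%, against 0.56% of all tested isoforms) and 23 lower (0.358%, against 0.212%). The 59 rose by a median of 0.97 in total RNA, and their median polysomal change was 0.55, with 49 above 0 and 10 below. Their median shift was -0.50, and 48 of the 59 were below 0. The 23 fell in total RNA, with a median change of -0.82, and all 23 had a polysomal change below 0, with a median of -0.60. Their median shift was 0.22. In both lists the polysomal change thus had mostly the sign of the total RNA change and a smaller median size. The total RNA change enters the shift with a minus sign, so selecting isoforms on it favours a shift of the opposite sign, and this pattern is not independent evidence of one.

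In polysomal RNA, limma called 23 isoforms higher (0.358%, against 0.167% of all tested isoforms) and 11 lower (0.171%, against 0.122%). The 23 rose by a median of 1.13 on polysomes, and all 23 had a total RNA change above 0, with a median of 0.73. Their median shift was 0.30, with 19 above 0 and 4 below. The 11 fell on polysomes, with a median change of -0.97. Their total RNA change had a median of -0.63 but was above 0 in 5 of the 11, and their shift was below 0 in all 11, with a median of -0.46. The polysomal change enters the shift with a plus sign, so selecting on it favours a shift of the same sign, and these counts are a description. Of the 34 isoforms, 1 was called for the shift. Both counts were unstable. Leaving out a polysomal library leaves the total RNA changes as they were and alters only the pooled spread and its degrees of freedom. The same holds for polysomal changes when a total RNA library is left out. Leaving out DDX3X polysomal replicate 2 gave 207 polysomal calls, and leaving out any of the other 7 libraries left 0 to 3. Total RNA calls, 82 with all libraries, were 171 and 174 without DDX3X polysomal replicate 1 or 2, and 1 to 8 without any of the other 6 libraries.

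The share of lower ratios differed between levels of abundance. At a mean of at least 200 FPKM there were 251 isoforms, of which 46 had a lower ratio at an unadjusted p under 0.05 (18.3%) and 3 a higher one (1.20%). Of the 2308 isoforms with a mean of 5 to 10 FPKM, 124 were lower (5.37%) and 42 higher (1.82%). The 4 classes between these held 5.80% to 8.97% lower and 1.68% to 2.83% higher isoforms. The standard error also depended on abundance, with a median of 0.24 at 5 to 10 FPKM and 0.15 at 200 FPKM or more, so smaller shifts reached the threshold in abundant isoforms. In the class of 200 FPKM or more the median shift was -0.05, the same to 2 decimals as at 5 to 10 FPKM. The abundant class had the lower median without DDX3X polysomal replicate 1 (-0.03 against 0.05) or control polysomal replicate 1 (-0.05 against -0.0037). It was also lower after quantile normalization (-0.01 against 0.03) and without control total replicate 2 or DDX3X total replicate 2. Its median was the higher one after median-of-ratios scaling (0.04 against 0.03) and without DDX3X polysomal replicate 2 (-0.08 against -0.16). The same held without control polysomal replicate 2, control total replicate 1 or DDX3X total replicate 1. The order of these medians thus depended on the fit. After median-of-ratios scaling 34 of the 251 were lower (13.5%) and 5 higher, and after quantile normalization 24 were lower (9.56%) and 7 higher. The class of 200 FPKM or more thus had the highest lower share unscaled and with median-of-ratios scaling, but not after quantile normalization, where the class of 100 to 200 FPKM had 10.1%. With median-of-ratios scaling the higher share was the larger one at 20 to 50 FPKM, at 6.54% against 6.39%. The lower share of this class was 14.3% without DDX3X polysomal replicate 1 and 25.9% without replicate 2, where the other classes held 12.5% to 21.3%. The 46 lower isoforms became 22 without DDX3X total replicate 2 (8.76%), 25 without control total replicate 1 and 30 without DDX3X total replicate 1. The difference between the classes was not tested.

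Among the 46 abundant isoforms with a lower ratio, the shift ran from -3.10 to -0.29 with a median of -0.45. Their total RNA change was above 0 in 42, with a median of 0.35, and their polysomal change was below 0 in 40, with a median of -0.16. Total RNA reached an unadjusted p under 0.05 in 36 and polysomal RNA in 12. Their median log2 ratio of polysomal to total RNA was -0.01 with control and -0.49 with DDX3X siRNA, whereas the class of 251 had medians of 0.55 and 0.50. After median-of-ratios scaling the class had medians of 0.38 and 0.42, so their order turned, and its 34 lower isoforms had -0.18 and -0.60. Without DDX3X polysomal replicate 1 the polysomal change was below 0 in 28 of 36 lower isoforms of this class and the total RNA change above 0 in 34, and without replicate 2 in 58 and 53 of 65. The median ratio of these 46 isoforms was thus below that of their class already with control siRNA, a difference that was not tested.

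**Figure D4:**
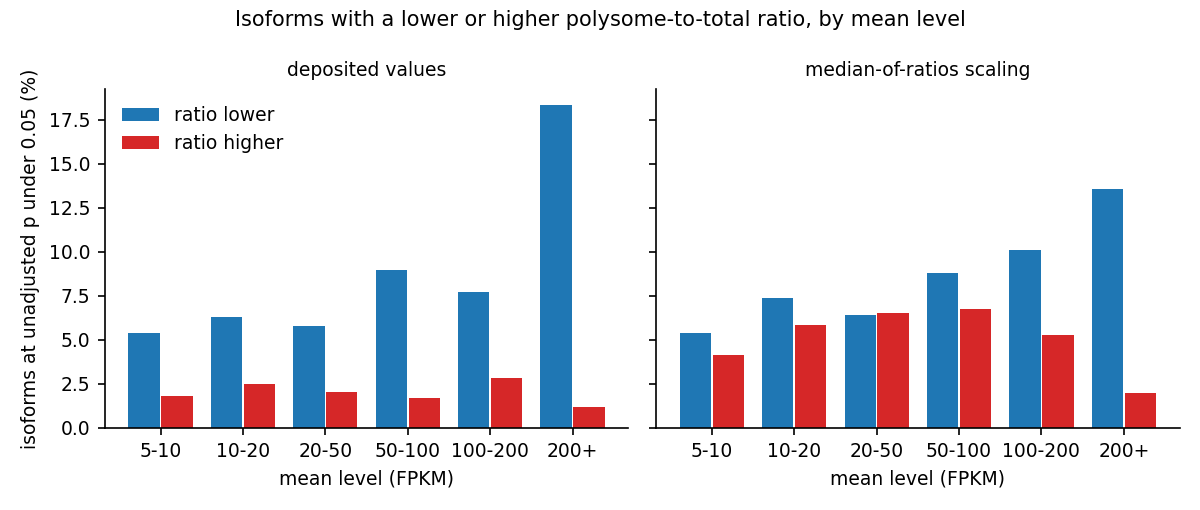
Percent of isoforms at an unadjusted p under 0.05 for the polysome shift (vertical axis) by mean level in FPKM (horizontal axis), lower ratio in blue and higher in red, on the deposited values (left) and after median-of-ratios scaling (right). The lower share reaches 18.3% and 13.5% at 200 FPKM or more, while the higher share there is 1.20% and 1.99%.

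The shift was also computed once from the 4 libraries numbered 1 and once from the 4 numbered 2, which share no library. Its median was -0.19 from the first set and 0.09 from the second, and 47.7% of the 6427 isoforms had the same sign in both. Across isoforms, which are not independent replicates, the correlation of the 2 shifts was 0.16 (Pearson) and 0.21 (Spearman). After median-of-ratios scaling, which brought the medians to 0.05 and 0.02, the same sign was found for 58.4%, and both correlations were the same to 2 decimals. With each set centred on its own median the share was 56.7%. The sign of the shift thus differed between the sets for many isoforms under each of these settings, and small shifts were not tallied apart. Among the 251 most abundant isoforms the correlation was 0.62 (Pearson) and 0.59 (Spearman). The same sign was found for 142 of these (56.6%) on the deposited values without centring, against 47.7% of all isoforms on the same values. The share of these 251 after centring was not computed. The points share their libraries, so no p is given.

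More of the larger shifts were found in both sets on the lower side, where both lists were also longer on the deposited values. The number shared depends on the length of the lists, and no expected number was computed. A shift of -0.5 or lower was found for 1239 isoforms from the libraries numbered 1 and for 508 from those numbered 2, with 257 in both (20.7% and 50.6% of the lists). A shift of 0.5 or higher was found for 353 and 483, with 76 in both (21.5% and 15.7%). After median-of-ratios scaling the lists were 562 and 630 lower with 211 in both (37.5% and 33.5%), and 792 and 353 higher with 92 in both (11.6% and 26.1%). Shifts of 0.5 or more in opposite directions were found for 133 isoforms on the deposited values and 138 after scaling. Isoform uc003czv.3 had a shift of -1.27 from the first set and -1.21 from the second, and uc002rid.3 of -1.50 and -1.35. The third called isoform had -3.80 and -5.20, and uc001fcf.4 had 2.96 and 1.33. Isoforms with a small spread within groups pass more easily, so the closeness of the first pair is a description.

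**Figure D5:**
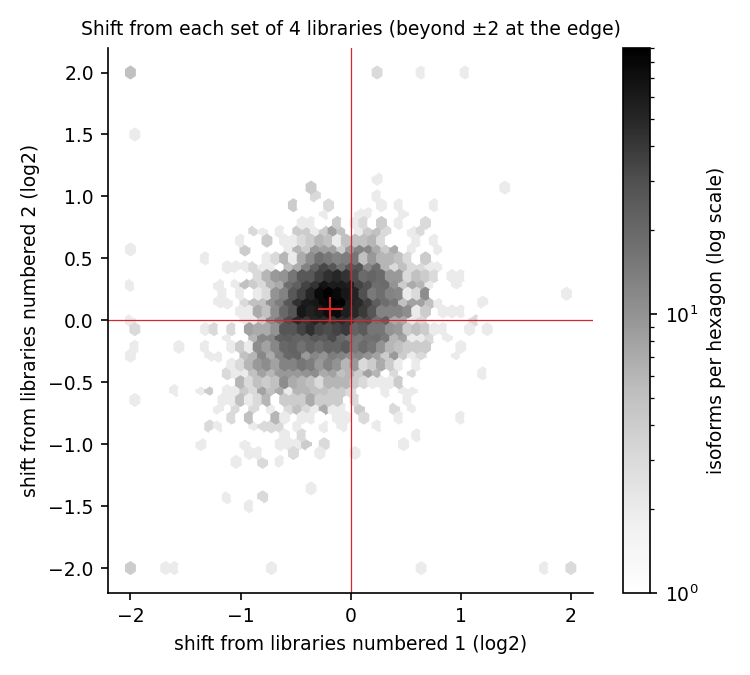
Polysome shift (log2) from the 4 libraries numbered 2 (vertical axis) against that from the 4 numbered 1 (horizontal axis) for 6427 isoforms, with the number of isoforms per hexagon in grey on a log scale and values beyond the axes drawn at the edge; the red cross marks the medians (-0.19 and 0.09). The cloud is nearly round (r = 0.16), with a tail to the lower left, where 257 isoforms are at -0.5 or lower in both sets.

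Many of the largest shifts belonged to isoforms with a low value in some library. Of the 6427 isoforms, 76 were under 1 FPKM in at least 1 library, and 45 of these (59.2%) had a shift of at least 1 in absolute value, against 116 of the other 6351 (1.83%). Their median standard error was 1.14 against 0.21, and 7 of the 76 reached an unadjusted p under 0.05. Of the 15 shifts of -2 or lower 11 were such isoforms, and of the 7 shifts of 2 or higher 4 were. With the isoforms under 1 FPKM left out, 93 isoforms had a shift of -1 or lower and 23 a shift of 1 or higher, so the longer lower side remained. The minimum mean of 5 FPKM passed between isoforms at 4.999995 and 5.001745 FPKM, and 8888 tested isoforms above 0 in every library lay below it. A further 264 isoforms reached a mean of 5 FPKM but had a listed value of 0 in some library and were not described.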

How the data were processed

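Polysomal and total RNA from HT-144 cells was sequenced with paired-end reads of 75 bp, per the labels' protocols. TopHat2 and Cufflinks 2.2.1 were used with hg38, per the submitters' processing notes. Their settings and annotation are not given in the sources used here. FPKM values in 65535 isoform rows, a column per library, form the table that the authors deposited. With the header line it holds 65536 lines, as many as older spreadsheet programs can, and isoforms beyond that were not analysed here. In 21 rows all columns held another field (14 a text, 7 the same nonzero value), and these were left out; 5 decimal commas were read as points. Depth per library was unknown. A value of exactly 0 may be an estimate that failed.

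Values were transformed as log2(FPKM + 1), which understates changes of low isoforms. The 15531 isoforms that reached 1 FPKM in 2 or more libraries were fitted with limma 3.58.1 in R 4.3.3 (4 group means; eBayes with trend; degrees of freedom 4 residual and 2.65 prior). Benjamini-Hochberg adjustment covered all tested isoforms, with a threshold of 0.05, and the 6427 described isoforms were read from that fit. The code was tested on simulated data. Of 65514 identifiers 1 matched the reference gene tables, and it was not among the described isoforms.

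Named isoforms were at an unadjusted p under 0.05, at 1 FPKM or more in every library, with ratios that did not overlap between siRNAs (128 higher, 421 lower); those passing the adjusted threshold came first, then the largest shifts, 2 in each direction. The described isoforms, the rule and the tests were chosen with earlier results of these data known. The abundance classes, the size limits of 0.5, 1 and 2, the comparison of the library numbers by size and the tallies by fraction without single libraries were added after values had been seen. Alternatives covered the pseudocount, filter, scaling, variance model, replicate block, each library left out and the abundance minimum. Python 3.11.15 with matplotlib 3.10.9 made the plots.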

Additional observations from a re-analysis of the deposited data

Results flagged for a closer look

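For 3 isoforms the polysomal change and the total RNA change with DDX3X siRNA differed by the limma test of the difference itself. The shift was -1.24 for uc003czv.3, with a fall on polysomes. It was -1.43 for uc002rid.3, with a rise in total RNA and a smaller fall on polysomes that did not pass. It was -4.50 for the third called isoform, which was under 1 FPKM in both control total RNA libraries and rose in total RNA. The groups had 2 libraries each, so no search for outlying libraries within a group was made.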

How the results depend on the processing

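All 4 named isoforms kept the sign of their shift in the 17 other fits, and uc032zlz.1 and uc001fcf.4 passed in 0 of them. The count of 3 called isoforms was 1 with a pseudocount of 0.1, 5 when only the described isoforms were fitted, 8 with no filter, 0 with no intensity trend (77 higher and 317 lower at an unadjusted p under 0.05), 1 with the replicate block and 0 to 7 without single libraries. The isoform called with the replicate block was not among the 3.

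Of isoforms at an unadjusted p under 0.05, the 131 higher ones became 199 with no filter, 339 with median-of-ratios scaling, 332 with quantile normalization, 77 with no intensity trend, 46 where the mean reached 20 FPKM and 73 to 232 without single libraries. The 425 lower ones became 191 where the mean reached 20 FPKM, which leaves fewer isoforms, and 238 to 1082 without single libraries. The median shift ran from -0.14 to 0.06 without single libraries. The share of isoforms with the same sign from both library numbers was 58.4% and 57.4% under the 2 scalings, against 47.7%.

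Polysomal calls, 34 in the fit described, were 52 with a pseudocount of 5, 475 in the fit of the described isoforms only, 195 and 119 with median-of-ratios and quantile scaling, 0 with no intensity trend, 91 with robust eBayes, 1 with the replicate block and 0 to 207 without single libraries. Total RNA calls, 82 in the fit described, were 125 with a pseudocount of 0.1, 510 in the fit of the described isoforms only, 50 with no filter, 345 and 404 with the scalings, 8 with no intensity trend, 201 with robust eBayes, 9 with the replicate block, 38 where the mean reached 20 FPKM and 1 to 174 without single libraries. Where a library of the other fraction was left out, the changes stayed the same and only the pooled spread and its degrees of freedom altered. The causes of the remaining differences were not tested.

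The labels do not say that a shared replicate number marks a shared culture, and deviations of same-numbered libraries correlated between groups with r from -0.12 to 0.10, so the replicate block was not taken as a pairing. A fit that left a group with 1 library assumed that it varied like the other groups.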
